A study of Mus musculus with 16 samples.

Results

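The 10 genes described here are *Nfe2l2*, which encodes the transcription factor NRF2, *Keap1*, its inhibitor, and 8 antioxidant and detoxifying enzyme genes that are known NRF2 targets (*Nqo1*, *Hmox1*, *Gclc*, *Gclm*, *Txnrd1*, *Srxn1*, *G6pdx* and *Gsr*). They were taken by symbol from a list that uses no measured value but was drawn up with earlier results of these data known, and all 10 were found among the 53354 genes with TPM (a transcript level scaled to transcript length and library size) and the 54393 genes with estimated counts. The cells were mIMCD3, a single wild type line derived from the inner medullary collecting duct of an SV40 T antigen transgenic mouse, grown for 10 days on permeable filters. They then received either doxycycline (DOX, 2 µg/mL), a tetracycline antibiotic widely used to switch transgenes on or off, or its vehicle DMSO, with fresh medium every day. Polyadenylated RNA was sequenced after 3 or 6 days of treatment, with 4 replicate libraries in each of the 4 groups. The question was how far DOX itself alters the genes of these cells, here those of the NRF2 antioxidant pathway. The labels number the replicates but do not say whether each was a separate culture, so p-values measure the spread between these libraries, which may be technical.

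NRF2 is made continuously and is normally held by KEAP1, which presents it to a CUL3 ubiquitin ligase for destruction. When oxidants or electrophiles modify cysteines of KEAP1, NRF2 escapes, enters the nucleus, pairs with a small MAF protein and binds antioxidant response elements, sites that the repressor BACH1 otherwise occupies. The targets make and recycle glutathione, reduce thioredoxin and peroxiredoxins, detoxify quinones and haem, and supply NADPH, so that the mRNA of the targets is commonly used as a readout of NRF2 activity, while NRF2 itself is controlled mostly at the protein level.

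Total estimated counts ran from 16933343 to 23960859 per library, which puts a floor of 3 counts at 0.125 to 0.177 CPM (counts per 1e6 counts), a limit of counting error only. Replicates of a group correlated at 0.997 to 0.999 in log2(CPM + 1) across all 54393 genes. Only 13234 of these were expressed enough to be tested below, and values near 0 shared by the rest can raise such a correlation. All 6 epithelial markers examined (*Cdh1*, *Epcam*, *Krt8*, *Krt18*, *Pax8* and *Cldn4*) were above 1 TPM, and their sum was 2016 to 2226 TPM with DMSO and 1439 to 1740 TPM with DOX at 3 days, and 2185 to 2450 TPM against 1493 to 1676 TPM at 6 days. The sum of 6 principal cell markers, *Aqp2* and the sodium channel subunit genes among them, did not exceed 3.58 TPM in any library, so the collecting duct label was not matched by the defining genes of that cell type. Markers of fibroblasts summed to at most 1.15 TPM and those of endothelium to at most 1.26 TPM. Proximal tubule markers summed to 2.81 to 22.3 TPM, with overlapping ranges in the 4 groups. Of 4 leukocyte markers only *Cd68*, which other cells also express, exceeded 1 TPM, *Ptprc* was at most 0.381 TPM and *Adgre1* and *Cd3e* were at or near 0 in every library, and the sum of the 4 was 17.3 to 21.9 TPM with DMSO and 7.81 to 10.4 TPM with DOX at 3 days, and 22.6 to 24.6 TPM against 11.3 to 12.7 TPM at 6 days. *Krt18* and *Krt8* made up most of the epithelial sum (means of 889 and 640 TPM over the DMSO libraries), and *Cd68* nearly all of the leukocyte sum. These 2 sums, each resting on few genes, moved with DOX in the same direction as the genes below that fell, and their part in the results was not tested. In such bulk RNA, fewer expressing cells and less RNA per cell cannot be told apart.

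Sequence upstream of 7 of the 10 genes was in the RefSeq promoter table for GRCm38.p6, and *Hmox1*, *Gclc* and *Gsr* were not in it. The 250 bases before each listed start were searched on both strands for 2 forms of the antioxidant response element, TGACNNNGC and the looser TGANNNNGC, which includes every match of the first. TGACNNNGC occurred in 10.2% and TGANNNNGC in 35.2% of 32851 windows of this length. Of the 7 genes, 4 held TGACNNNGC (*Nfe2l2*, *Gclm*, *G6pdx* and *Txnrd1*, the last in 1 of its 3 windows) and 6 held TGANNNNGC, all but *Nqo1*. The windows of 4 genes are printed 5′ to 3′ on the strand of the gene, with TGANNNNGC matches of either strand in capitals: those of *Gclm* and *Srxn1*, which fell with DOX, of *Nfe2l2*, which encodes the factor, and of *Nqo1*, the gene without a match. The *Gclm* window is chr3:122245307-122245556 on the plus strand, that of *Srxn1* chr2:152105274-152105515 on the plus strand, that of *Nfe2l2* chr2:75704664-75704913 on the minus strand and that of *Nqo1* chr8:107403207-107403455 on the minus strand, each ending before the first annotated transcript base, and positions below are counted from the RefSeq start.
Gclm: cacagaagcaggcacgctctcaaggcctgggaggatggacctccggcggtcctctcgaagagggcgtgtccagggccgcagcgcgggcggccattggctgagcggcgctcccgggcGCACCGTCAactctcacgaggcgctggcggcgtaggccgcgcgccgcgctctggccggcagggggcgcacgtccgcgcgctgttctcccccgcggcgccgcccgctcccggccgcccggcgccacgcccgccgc
Srxn1: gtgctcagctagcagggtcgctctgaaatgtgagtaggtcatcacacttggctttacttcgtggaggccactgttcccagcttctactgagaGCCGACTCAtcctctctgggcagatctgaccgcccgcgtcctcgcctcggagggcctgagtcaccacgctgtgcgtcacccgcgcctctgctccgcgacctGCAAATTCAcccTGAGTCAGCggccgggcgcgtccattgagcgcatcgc
Nfe2l2: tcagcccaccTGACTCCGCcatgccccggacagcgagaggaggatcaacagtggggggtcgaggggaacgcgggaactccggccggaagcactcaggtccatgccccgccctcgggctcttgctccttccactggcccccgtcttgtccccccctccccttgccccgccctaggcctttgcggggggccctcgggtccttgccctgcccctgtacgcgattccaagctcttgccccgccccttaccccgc
Nqo1: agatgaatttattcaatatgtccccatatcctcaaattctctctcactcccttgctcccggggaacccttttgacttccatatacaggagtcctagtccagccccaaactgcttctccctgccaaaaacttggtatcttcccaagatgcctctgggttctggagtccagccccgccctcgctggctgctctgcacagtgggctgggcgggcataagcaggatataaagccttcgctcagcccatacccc
The *Gclm* match lies on the minus strand, 134 to 126 bases before the start, and reads TGACGGTGC there. *Srxn1* had 3 matches, of which TGAGTCAGC at 45 to 37 bases before the start also contains TGAGTCA, a form of the AP-1 motif TGANTCA, and a second TGAGTCA lies 102 to 96 bases before the start. TGANTCA occurred in 6.7% of all windows and, among the windows of the 7 genes, in that of *Srxn1* alone. The *Nfe2l2* match, TGACTCCGC, lies 240 to 232 bases before the start. A match describes letters only, and known elements can lie outside so short a window.

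In DMSO-treated cells, TPM over the 8 libraries of both times placed *Gsr* and *Gclm* at the top and *Nqo1* far at the bottom. *Gsr*, glutathione reductase, which returns oxidised glutathione to its reduced form, stood at 161 ± 13.3 TPM (SD, n = 8) and *Gclm*, the modifier subunit of glutamate-cysteine ligase, at 159.9 ± 8.88 TPM, ranks 753 and 758 of 53354 genes. *Txnrd1*, cytosolic thioredoxin reductase, followed at 94.1 ± 8.39 TPM. *Nfe2l2* was at 60.2 ± 6.58 TPM, *Hmox1*, haem oxygenase-1, at 48.2 ± 7.29 TPM and *Gclc*, the catalytic subunit of glutamate-cysteine ligase, at 42.1 ± 4.75 TPM. *Srxn1*, sulfiredoxin, which repairs overoxidised peroxiredoxins, was at 24.6 ± 1.68 TPM, *Keap1* at 23.2 ± 2.61 TPM and *G6pdx*, glucose-6-phosphate dehydrogenase, at 19.5 ± 1.47 TPM. *Nqo1*, NAD(P)H quinone dehydrogenase 1, reached 1.54 ± 0.431 TPM, rank 12405. Neighbours in this order overlapped in their library ranges for *Gsr* and *Gclm*, *Nfe2l2* and *Hmox1*, *Hmox1* and *Gclc*, *Srxn1* and *Keap1*, and *Keap1* and *G6pdx*. The others were separated, with the widest gap, 12.7-fold between means, from *G6pdx* to *Nqo1*. The modifier subunit was thus several times above the catalytic subunit in level per length.

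**Figure D1:**
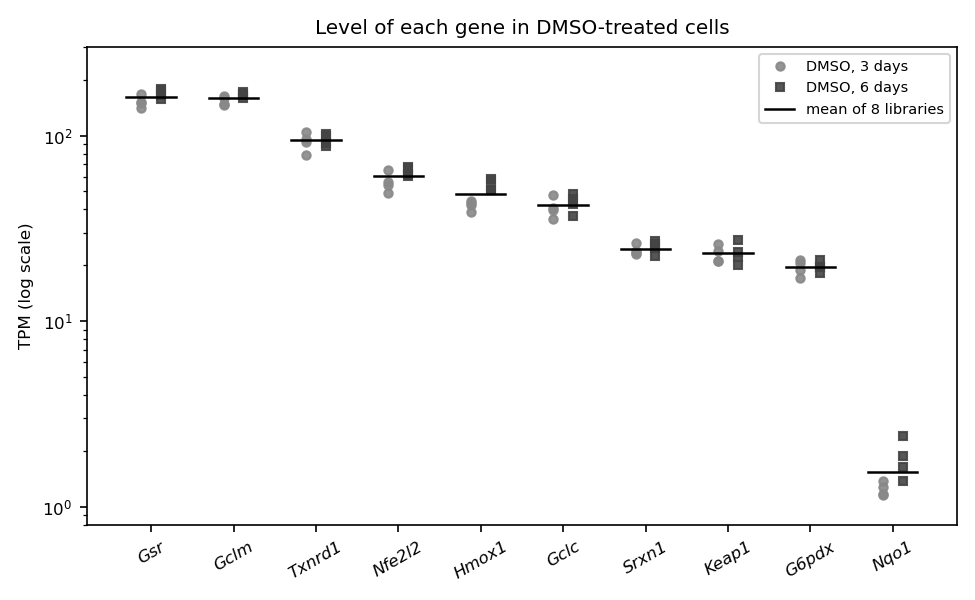
TPM of each of the 10 genes (log axis) in the 4 DMSO libraries of 3 days (circles) and the 4 of 6 days (squares), with the mean of the 8 as a line. The genes run from *Gsr* at 161 TPM to *Nqo1* at 1.54 TPM, and only *Nqo1* lies below 10 TPM.

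With DOX, 4 of the 10 genes fell at both times and none rose. These were both subunits of glutamate-cysteine ligase, the rate-limiting enzyme of glutathione synthesis (*Gclc* and *Gclm*), sulfiredoxin (*Srxn1*) and glutathione reductase (*Gsr*), which lost 25.4% to 48.9% of their mRNA at 3 days and 26.1% to 44.1% at 6 days. The other 6, the regulators *Nfe2l2* and *Keap1* among them, did not pass the test at either time. Genes are called changed here when the change exceeded 1.2-fold by edgeR's glmTreat with an adjusted p (Benjamini-Hochberg over 13234 tested genes) under 0.05, and all 10 genes had been expressed enough to be tested. Of all tested genes, 12.5% were called at 3 days (5.30% as higher, 7.22% as lower) and 21.6% at 6 days (10.0% as higher, 11.6% as lower), beside 4 of 10 here at each time, all lower. The median log2 fold change of the 10 genes was -0.38 at 3 days and -0.22 at 6 days, against 0.00 over all tested genes at either time. Of the genes called among all tested, 42.3% at 3 days and 46.4% at 6 days were higher with DOX. On log2(TPM + 1), where the median over all genes was itself -0.15 at 3 days and -0.06 at 6 days, these shares were 12.5% and 27.9%, and the same 4 of the 10 genes were called lower. The log2 fold change was negative for 9 of 10 genes at each time, the exceptions being *Hmox1* at 3 days and *Keap1* at 6 days. At 6 days these signs depend on the scale, since *Keap1* came out at -0.08 on log2(TPM + 1) and *Hmox1* at 9.45e-05 with an offset for transcript length and GC content. In CPM, the 4 DOX libraries lay wholly below the 4 DMSO libraries for 8 of 10 genes at 3 days and for 6 of 10 at 6 days, where 19.8% and 20.9% of all tested genes did so. Together with *Hmox1*, which lay wholly above at 3 days, the treatments did not overlap for 9 of 10 genes at 3 days, beside 38.6% of all tested genes, and for 6 of 10 at 6 days, beside 43.0%.

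**Figure D2:**
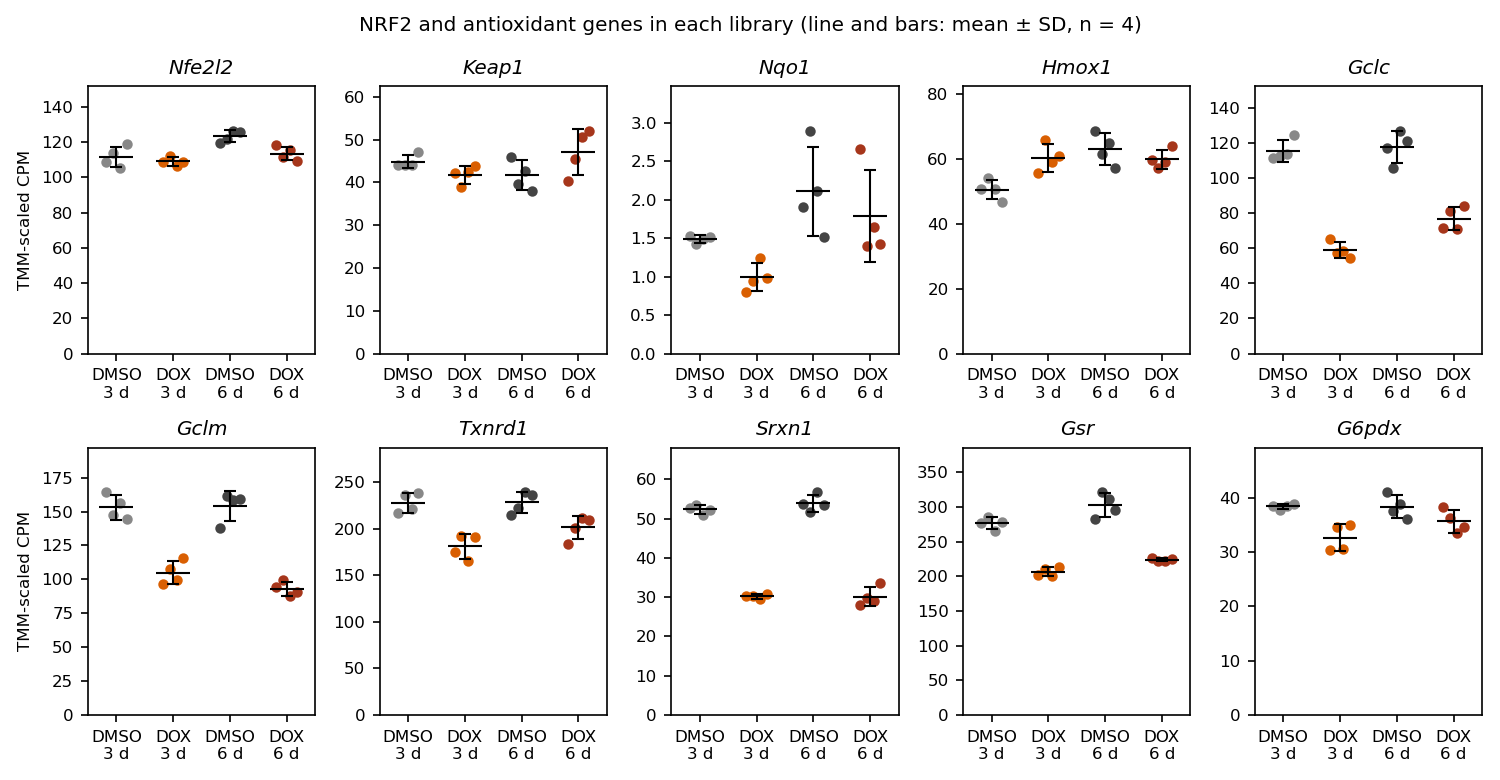
TMM-scaled CPM of each gene in each of the 16 libraries (dots), with the mean and SD of the 4 replicates of each group, every axis starting at 0. The DOX dots of *Gclc*, *Gclm*, *Srxn1* and *Gsr* lie below all DMSO dots of the same time, while those of *Nfe2l2* lie among them at 3 days.

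**Figure D3:**
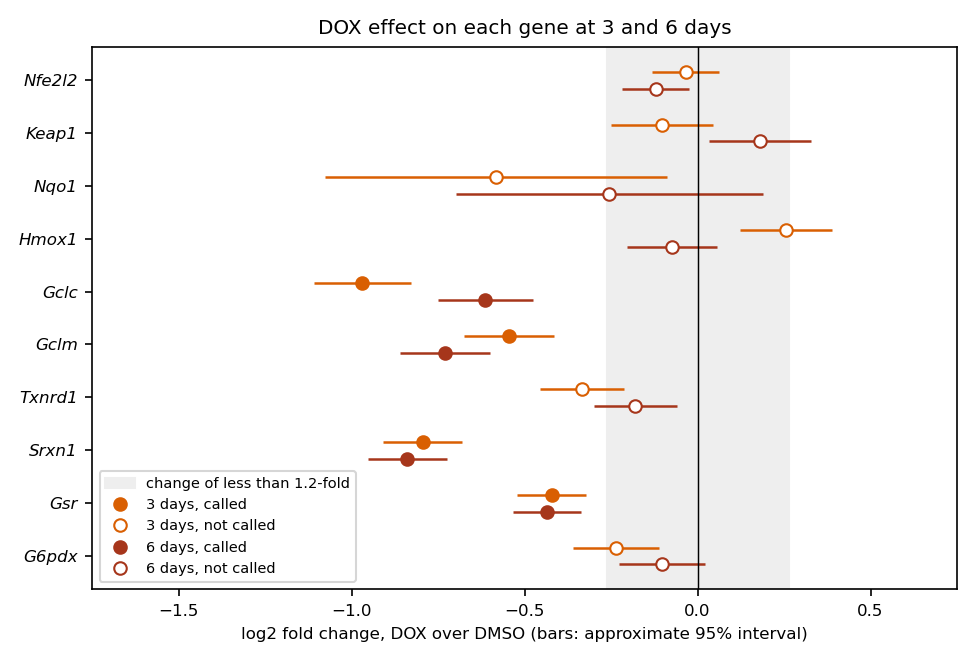
Log2 fold change of DOX over DMSO for each gene at 3 days (upper point) and 6 days (lower point), with approximate 95% intervals, filled where the gene was called. *Gclc*, *Gclm*, *Srxn1* and *Gsr* are filled at both times, and the grey band marks changes of less than 1.2-fold.

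Of the glutamate-cysteine ligase subunits, the catalytic one had the larger log2 fold change at 3 days and the modifier one at 6 days. *Gclc* (ENSMUSG00000032350, chromosome 9 from 77754535 to 77794485, plus strand) had 111, 112, 113 and 125 CPM in the DMSO libraries of 3 days and 65.3, 57.1, 58.5 and 54.7 CPM with DOX. At 6 days it had 117, 106, 127 and 121 CPM with DMSO and 71.4, 81.4, 70.8 and 83.8 CPM with DOX. The treatments did not overlap at either time, and the DOX libraries of 6 days all lay above those of 3 days. Its log2 fold change was -0.97 (SE 0.072, edgeR adjusted p = 5.05e-08) at 3 days and -0.61 (SE 0.071, edgeR adjusted p = 7.25e-05) at 6 days. *Gclm* (ENSMUSG00000028124, chromosome 3 from 122245557 to 122270732, plus strand), whose protein eases the feedback inhibition of the catalytic subunit, had 164, 147, 156 and 145 CPM with DMSO and 96.9, 108, 99.4 and 116 CPM with DOX at 3 days. At 6 days the values were 138, 162, 159 and 159 CPM against 94.3, 99.5, 87.6 and 90.8 CPM. Again no library of one treatment reached the other, the nearest being 138 CPM in DMSO and 99.5 CPM in DOX at 6 days. The log2 fold changes were -0.54 (SE 0.066, edgeR adjusted p = 0.00071) and -0.73 (SE 0.066, edgeR adjusted p = 1.13e-06). *Gclm* exons overlap those of *Gm17494* on the other strand (15 to 64 counts per library) and the pseudogene *Gm6061* on the same strand (0 to 31 counts), against 1833 to 3526 counts for *Gclm* itself.

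Of the thiol-reducing enzymes, *Srxn1* fell most and *Txnrd1* was not called. *Srxn1* (ENSMUSG00000032802, chromosome 2 from 152105516 to 152111376, plus strand) had 52.7, 53.6, 50.9 and 52.3 CPM with DMSO and 30.2, 30.3, 29.4 and 30.8 CPM with DOX at 3 days. At 6 days it had 53.7, 51.7, 56.8 and 53.4 CPM with DMSO and 28.1, 29.9, 29.0 and 33.5 CPM with DOX. Every DOX library was far below every DMSO library, and within each treatment the ranges of the 2 times overlapped. The log2 fold change was -0.79 (SE 0.058, edgeR adjusted p = 9.29e-08) at 3 days and -0.84 (SE 0.058, edgeR adjusted p = 1.04e-08) at 6 days, losses of 42.4% and 44.1%.

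*Gsr* (ENSMUSG00000031584, chromosome 8 from 33652523 to 33698163, plus strand) fell by a smaller share at a high level. It had 278, 286, 266 and 278 CPM with DMSO and 202, 211, 200.2 and 214 CPM with DOX at 3 days, and 283, 322, 311 and 296 CPM with DMSO and 226, 222, 222 and 226 CPM with DOX at 6 days. The groups were separate at both times. The log2 fold change was -0.42 (SE 0.050, edgeR adjusted p = 0.00637) at 3 days and -0.44 (SE 0.050, edgeR adjusted p = 0.00199) at 6 days. When genes with low counts were not filtered out, so that 34114 genes were tested, the 6-day change of *Gsr* missed the threshold (edgeR adjusted p = 0.0668). *Txnrd1* (ENSMUSG00000020250, chromosome 10 from 82833951 to 82897712, plus strand) had 217, 236, 221 and 238 CPM with DMSO and 175, 192, 165 and 191 CPM with DOX at 3 days, and 214, 222, 239 and 236 CPM against 184, 201, 211 and 209 CPM at 6 days. Its DOX libraries were below its DMSO libraries at both times, by a small margin at 6 days. The log2 fold change was -0.33 (SE 0.062, edgeR adjusted p = 0.208) at 3 days and -0.18 (SE 0.062, edgeR adjusted p = 1) at 6 days, so that a change beyond 1.2-fold was not shown.

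*G6pdx* (ENSMUSG00000031400, chromosome X from 74409483 to 74429194, minus strand), the first enzyme of the pentose phosphate pathway, which yields NADPH for glutathione and thioredoxin reductase, had 38.5, 37.8, 38.4 and 38.9 CPM with DMSO and 30.3, 34.6, 30.5 and 34.9 CPM with DOX at 3 days. At 6 days the values were 41.0, 37.5, 38.8 and 36.0 CPM against 38.3, 36.2, 33.4 and 34.7 CPM. The groups were separate at 3 days and overlapped at 6 days. The log2 fold changes, -0.24 (SE 0.064, edgeR adjusted p = 0.848) and -0.10 (SE 0.063, edgeR adjusted p = 1), did not pass the 1.2-fold test. Exons of *Ikbkg* overlap *G6pdx* on the opposite strand, with 634 to 1139 counts per library. The library kit keeps strand, but whether counting used it is not given in the sources used here, so reads of this pair, and of *Keap1* and its antisense gene, may be shared.

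*Nqo1* and *Hmox1*, both widely used as NRF2 reporters, did not pass the test, and *Nqo1* was barely expressed. *Nqo1* (ENSMUSG00000003849, chromosome 8 from 107388225 to 107403206, minus strand) had 16 to 63 counts per library. It stood at 1.53, 1.42, 1.49 and 1.52 CPM with DMSO and 0.80, 0.95, 1.25 and 0.98 CPM with DOX at 3 days, and at 1.90, 2.90, 2.11 and 1.52 CPM against 2.66, 1.40, 1.65 and 1.42 CPM at 6 days. The groups were separate at 3 days and overlapped at 6 days. Its log2 fold change was -0.58 (SE 0.252, edgeR adjusted p = 0.246) at 3 days, as large as that of *Gclm* but with a fold interval from 0.474 to 0.941, and -0.25 (SE 0.227, edgeR adjusted p = 0.752) at 6 days. It reached 1 CPM in all 4 libraries of each group but DOX at 3 days, where 1 of 4 did, and a difference of 1.2-fold was not shown. The 6-day value rests on single libraries, being -0.05 without DMSO replicate 2 and -0.51 without DOX replicate 1 of 6 days.

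*Hmox1* (ENSMUSG00000005413, chromosome 8 from 75093621 to 75100589, plus strand), which opens the haem ring and is also controlled by BACH1 and by other stress pathways, had 50.6, 54.2, 50.6 and 46.7 CPM with DMSO and 55.6, 65.8, 59.0 and 60.9 CPM with DOX at 3 days. At 6 days it had 68.7, 61.5, 65.0 and 57.1 CPM with DMSO and 59.8, 57.1, 58.9 and 64.0 CPM with DOX. In CPM it was the only gene of the 10 whose DOX libraries lay above its DMSO libraries at 3 days, which 18.8% of all tested genes did (22.1% at 6 days), and at 6 days the treatments overlapped. In TPM they overlapped at 3 days too, at 38.6 to 44.2 with DMSO and 41.4 to 46.0 with DOX. The log2 fold change was 0.26 (SE 0.067, edgeR adjusted p = 0.715) at 3 days and -0.07 (SE 0.067, edgeR adjusted p = 1) at 6 days. Without the 1.2-fold threshold, the 3-day difference passed (edgeR adjusted p = 0.00404), and *Txnrd1* and *G6pdx* then also passed as lower at 3 days (edgeR adjusted p = 0.000187 and 0.00474), where 45.2% of all tested genes did so in either direction. At 6 days *Nfe2l2* and *Txnrd1* passed as lower in that test (edgeR adjusted p = 0.0451 and 0.0186), where 50.6% of all tested genes passed in either direction.

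Neither regulator was called with the 1.2-fold threshold. *Nfe2l2* (ENSMUSG00000015839, chromosome 2 from 75675513 to 75704641, minus strand) had 109, 114, 105 and 119 CPM with DMSO and 109, 112, 106 and 109 CPM with DOX at 3 days, and 119.7, 122, 127 and 126 CPM against 118, 111, 115 and 109 CPM at 6 days. These DOX values lay within the DMSO range at 3 days and just below it at 6 days. In TPM the 3-day values were 45.5 to 54.1 with DOX and 49.2 to 64.9 with DMSO. Over 28 alternative settings the 3-day log2 fold change of *Nfe2l2* was -0.21 at the lowest and was never called. The log2 fold change was -0.03 (SE 0.049, edgeR adjusted p = 1) at 3 days, with a fold interval from 0.913 to 1.04, and -0.12 (SE 0.049, edgeR adjusted p = 1) at 6 days, with an interval from 0.860 to 0.983. *Keap1* (ENSMUSG00000003308, chromosome 9 from 21229730 to 21239361, minus strand) had 44.1, 44.0, 44.0 and 47.2 CPM with DMSO and 42.2, 38.8, 42.4 and 43.8 CPM with DOX at 3 days, and 46.0, 39.7, 42.7 and 38.1 CPM against 40.4, 45.5, 50.6 and 52.1 CPM at 6 days. The 2 treatments were narrowly separate at 3 days and overlapped at 6 days. Its fold intervals were 0.841 to 1.03 at 3 days (log2 fold change -0.10) and 1.02 to 1.25 at 6 days (0.18), and neither was called (edgeR adjusted p = 1 at both times). The antisense gene *Gm16754*, whose exons overlap those of *Keap1*, had 200 to 456 counts per library and fell at 6 days, with a log2 fold change of -0.58 (edgeR adjusted p = 0.00871).

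The effect of DOX differed between the times for 2 of the 10 genes, *Gclc* and *Hmox1*, when the difference itself was tested with no fold threshold (edgeR's quasi-likelihood test), which called 17.0% of all tested genes, 7.44% with a higher and 9.58% with a lower effect at 6 days. The loss of *Gclc* was smaller at 6 days than at 3 days, by 0.36 on the log2 scale (SE 0.10, edgeR adjusted p = 0.0193). The *Hmox1* effect was lower at 6 days than at 3 days, with a difference of -0.33 (SE 0.095, edgeR adjusted p = 0.0215). Neither call held with a 1.2-fold threshold on the difference (edgeR adjusted p = 0.468 for *Gclc* and 0.562 for *Hmox1*), with limma on log2(TPM + 1) (adjusted p = 0.166 and 0.29), or without replicate 4 of the DMSO libraries of 3 days. *Gclc* was also lost without DMSO replicate 2 or DOX replicate 4 of 6 days (edgeR adjusted p = 0.0507 and 0.0503), and *Hmox1* without DOX replicate 2 of 3 days (0.0582), with no filter (0.0563) and with the offset for length and GC content (0.0924). For the other 8 genes no difference was called, the nearest being *Keap1* (0.28, SE 0.106, edgeR adjusted p = 0.0708). The difference for *Gclm* was -0.19 (fold interval 0.774 to 0.998), and that for *Srxn1* -0.04 (0.868 to 1.08).

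With DMSO alone, 0 of the 10 genes were called between 6 and 3 days by edgeR's glmTreat, as were 0% of all tested genes. In that test against a 1.2-fold change, 0 of the 10 had an unadjusted p under 0.05, beside 172 of the 13234 tested genes. Without the fold threshold *Hmox1* was called as higher at 6 days, where 0.468% of all tested genes were called in either direction. Neither DESeq2 nor limma on log2(TPM + 1) called any of the 10. *Hmox1* and *Nfe2l2* were nevertheless higher in all 4 DMSO libraries of 6 days than in all 4 of 3 days, as were 6.85% of all tested genes (12.2% did not overlap in either direction, 5.39% being lower), with log2 differences of 0.32 and 0.14. The *Hmox1* values with DOX were 55.6 to 65.8 CPM at 3 days and 57.1 to 64.0 CPM at 6 days, which overlap. With DOX, 0 of the 10 were called between the times by glmTreat, against 3.94% of all tested genes (1.37% higher, 2.58% lower). An unadjusted p under 0.05 was found for 2 of the 10, beside 1656 of the 13234 tested genes, so the count of 2 is not read as particular to these genes. DESeq2 and limma on log2(TPM + 1) likewise called 0. The 2 were *Nqo1*, with a log2 difference of 0.84 (edgeR adjusted p = 0.111), and *Gclc*, with 0.38 (edgeR adjusted p = 0.189). In both, and in *Gsr*, all DOX libraries of 6 days lay above those of 3 days, as did 14.5% of all tested genes (25.4% did not overlap in either direction, 10.8% being lower). The comparisons of DOX with DMSO at one time and of 6 with 3 days within a treatment share libraries and are given side by side only.

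Beyond the 10 genes, 118 genes of the wider antioxidant pathway were listed, and 102 of them were tested. At 3 days 7 rose and 7 fell (13.7% of the 102, beside 12.5% of all tested genes), and at 6 days 15 rose and 19 fell (33.3%, beside 21.6%). The counts of the single lists below stand beside the same shares of all tested genes. The median log2 fold change was 0.01 at 3 days and -0.05 at 6 days, near the 0.00 of all tested genes. Called at both times were 12 of the 36 genes called at either time, each in the same direction. The same overlap was not counted over all tested genes, so it is not read as particular to this pathway.

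**Figure D4:**
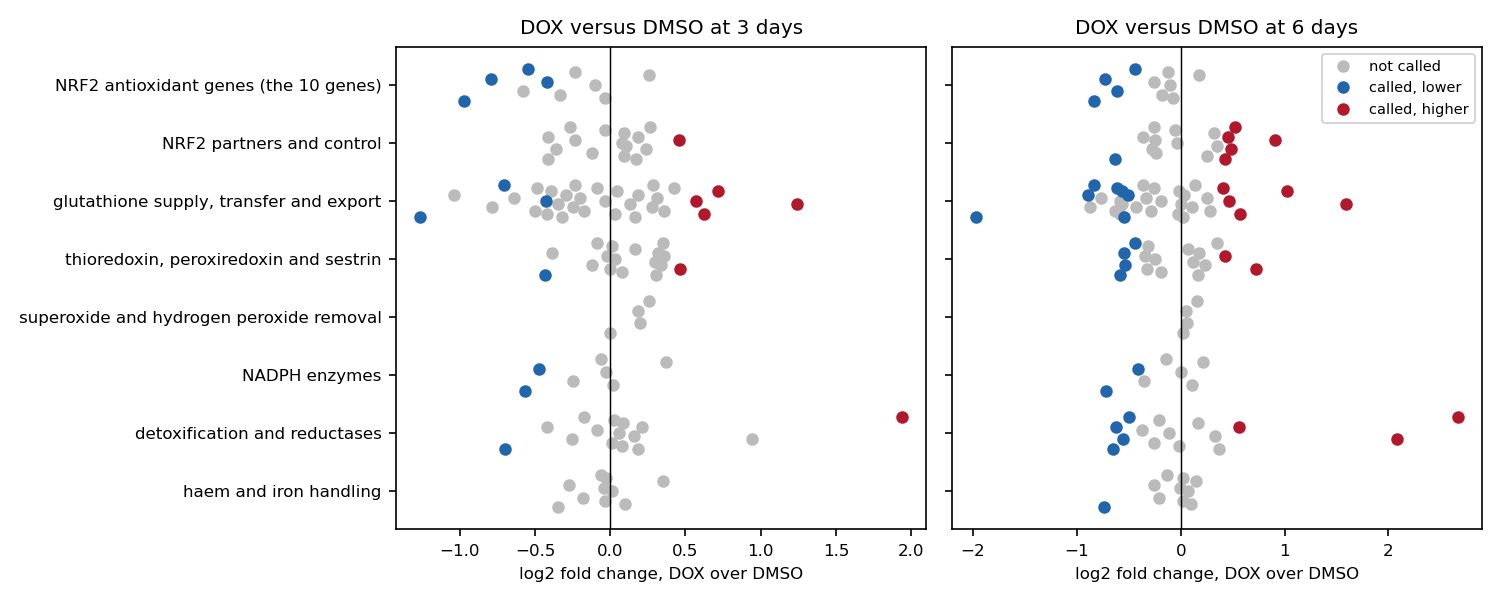
Log2 fold change of DOX over DMSO at 3 days (left) and 6 days (right) for the 10 genes (top line) and for the tested genes of 7 related lists, with genes called higher in red, called lower in blue and not called in grey. The called genes of the top line all lie to the left of 0, while the glutathione, thioredoxin and detoxification lines hold called genes on both sides, and the highest values belong to genes with few counts.

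Among 16 genes that pair with NRF2, control it or encode related factors, 1 rose and none fell at 3 days, and 5 rose and 1 fell at 6 days. *Mafg*, a small MAF partner, went from 121 ± 4.46 CPM to 165 ± 12.2 CPM (SD, n = 4) at 6 days, a log2 fold change of 0.46 (edgeR adjusted p = 0.00162), and stood at 0.09 at 3 days, where its sign turned on the TPM scale (-0.12). *Sqstm1*, an autophagy receptor that sequesters KEAP1, rose by 0.42 at 6 days (edgeR adjusted p = 0.00967). *Trim21*, a ubiquitin ligase that acts on SQSTM1 and is also induced by interferon, rose by 0.45 at 3 days (edgeR adjusted p = 0.0147) and 0.91 at 6 days (edgeR adjusted p = 2.7e-08). The related factors *Nfe2l1* and *Nfe2l3* rose at 6 days by 0.49 (edgeR adjusted p = 0.00244) and 0.52 (edgeR adjusted p = 0.0348), the second from 52 to 137 counts per library only. *Cul3*, the scaffold of the ligase that destroys NRF2 and many other proteins, fell at 6 days by 0.63 (edgeR adjusted p = 2.93e-05). The repressor *Bach1* was at -0.42 at 3 days (edgeR adjusted p = 0.0721) and -0.28 at 6 days (edgeR adjusted p = 0.521) and was not called. On the log2(TPM + 1) scale the 6-day rises of *Mafg*, *Sqstm1*, *Nfe2l1* and *Nfe2l3* missed the threshold (limma adjusted p = 0.95, 0.627, 0.176 and 0.79), and so did the 3-day rise of *Trim21* (1), which DESeq2 did not call either (adjusted p = 0.123) and which was lost without DMSO replicate 2 of 3 days (edgeR adjusted p = 0.0751). The *Nfe2l3* call was also lost with DESeq2 (adjusted p = 0.4) and without DMSO replicate 2, DMSO replicate 4 or DOX replicate 4 of 6 days (edgeR adjusted p = 0.0566, 0.0756 and 0.141). *Mafg* shares exon sequence with *Sirt7*, and *Sqstm1* overlaps *Mrnip* on the opposite strand.

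In the list for glutathione supply, transfer and export, 33 of 40 genes were tested, with 4 higher and 3 lower at 3 days and 5 higher and 7 lower at 6 days. The cystine importer stood opposite to glutamate-cysteine ligase. *Slc7a11*, its transport subunit, went from 15.5 ± 1.87 CPM to 36.6 ± 1.46 CPM at 3 days and from 12.8 ± 2.19 CPM to 38.5 ± 3.60 CPM at 6 days (SD, n = 4). Its log2 fold changes were 1.24 (edgeR adjusted p = 7.39e-08) and 1.59 (edgeR adjusted p = 4.26e-10). *Slc3a2*, its heavy chain, which also serves other amino acid transporters, rose by 0.57 (edgeR adjusted p = 0.00117) and 1.03 (edgeR adjusted p = 1.56e-08), though the 3-day rise was not called on log2(TPM + 1) (0.32, limma adjusted p = 1). Both are targets of NRF2 and of the amino acid response factor ATF4. The glutathione transferase genes *Gsta1* and *Mgst3* fell at 6 days by 1.97 (edgeR adjusted p = 5.9e-09) and 0.89 (edgeR adjusted p = 1.99e-05), and *Gsta1*, which has close paralogs that could share its reads, also at 3 days by 1.26 (edgeR adjusted p = 2.02e-05). *Gpx4*, the lipid hydroperoxidase, was not called, at 0.28 and 0.02.

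Among 17 thioredoxin, peroxiredoxin and sestrin genes, 1 rose and 1 fell at 3 days, and 2 rose and 4 fell at 6 days. At 6 days thioredoxin (*Txn1*) fell by 0.44 (edgeR adjusted p = 0.0243) and the peroxiredoxins *Prdx1* and *Prdx5* by 0.54 (edgeR adjusted p = 0.00319) and 0.55 (edgeR adjusted p = 0.0025). At 3 days these 3 were at 0.03, -0.09 and -0.12 and not called. Their effects at the 2 times differed by edgeR's test with no fold threshold (edgeR adjusted p = 0.00759, 0.015 and 0.0196), which called 17.0% of all tested genes. For these 3 genes that difference was not examined under other settings. The *Txn1* call at 6 days was lost with DESeq2 (adjusted p = 0.168) and with the offset for length and GC content (edgeR adjusted p = 0.308), with no filter (edgeR adjusted p = 0.0595) and without DMSO replicate 2, DOX replicate 2 or DOX replicate 4 of 6 days (edgeR adjusted p = 0.063, 0.0612 and 0.0638). *Txn1* and *Prdx1* have processed pseudogenes and *Prdx5* overlaps *Trmt112*, so their counts are less certain. *Sesn2* rose by 0.73 (edgeR adjusted p = 6.89e-05) and *Sesn3* fell by 0.58 (edgeR adjusted p = 0.000491) at 6 days, though neither was called on log2(TPM + 1) (limma adjusted p = 0.095 and 1). Sestrins restrain mTORC1 under amino acid or other stress. Of 4 tested genes that remove superoxide or hydrogen peroxide none was called by glmTreat at either time, and *Sod2* (0.18 and 0.02) and *Cat* (-0.00 and 0.06) were among them.

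Of 7 NADPH enzyme genes tested, 2 fell at each time and none rose. *Pgd*, the third enzyme of the oxidative pentose phosphate pathway, fell at 3 days by 0.47 (edgeR adjusted p = 0.00192) and was at -0.36 at 6 days (edgeR adjusted p = 0.0652). *Idh1*, cytosolic isocitrate dehydrogenase, fell by 0.57 (edgeR adjusted p = 0.00284) and 0.72 (edgeR adjusted p = 3.03e-05), and *Me1*, malic enzyme, fell at 6 days by 0.41 (edgeR adjusted p = 0.0129), a call lost with DESeq2 (adjusted p = 0.0686) and with no filter (edgeR adjusted p = 0.137).

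In the detoxification list, 15 of 22 genes were tested, with 1 higher and 1 lower at 3 days and 3 higher and 4 lower at 6 days. *Osgin1*, a stress-induced growth inhibitor gene and NRF2 target, fell by 0.70 (edgeR adjusted p = 3.02e-05) and 0.55 (edgeR adjusted p = 0.000705), the second not called on log2(TPM + 1) (limma adjusted p = 0.0558). The largest rises in the list rest on few counts: *Akr1b7*, an aldo-keto reductase gene with close paralogs, had 2 to 43 counts per library (log2 fold change 1.94 and 2.67, edgeR adjusted p = 0.000929 and 4.46e-06, the first not called by limma on log2(TPM + 1), adjusted p = 0.229), and *Ugt1a6a*, whose exons are largely shared within its gene cluster, 0 to 37 counts (2.09 at 6 days, edgeR adjusted p = 0.0124, and 1.70 without DMSO replicate 1 or 3.04 without DMSO replicate 4 of 6 days). In the DMSO libraries *Akr1b7* had 2 to 7 counts and *Ugt1a6a* 0 to 16, below 1 CPM in each. Both genes thus entered the test only through DOX libraries in which they were high. Their calls, which are part of the counts of higher genes, are not read as support. *Akr1c12*, with 34 to 69 counts, passed at 6 days (-0.65, edgeR adjusted p = 0.0383) but not with DESeq2 (adjusted p = 0.28), on log2(TPM + 1) (limma adjusted p = 0.188) or without any of 6 of the 8 libraries of 6 days, all but replicate 1 of each treatment (edgeR adjusted p = 0.0586 to 0.149). Of 10 haem and iron genes none was called at 3 days and 1 at 6 days, *Tfrc*, the transferrin receptor, which fell by 0.74 (edgeR adjusted p = 3.06e-05). *Fth1*, ferritin heavy chain and an NRF2 target, was at -0.03 and -0.26 and not called.

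*Srxn1* had the largest log2 fold change of the 10 genes at 6 days. Over all 16 libraries, the genes most like it in log2 CPM, centred on each gene's own mean, were *Tmprss2*, *Adgre5* and *Hexim1*, with root mean square differences of 0.0756, 0.0851 and 0.0916 on the log2 scale. None of the other 9 genes was among the 10 nearest genes. The log2 fold changes of these 3 at 6 days were -0.76, -0.74 and -0.78, beside -0.84 for *Srxn1*. The 3 were picked over the same libraries, so similar changes follow from the choice and are no separate result.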

How the data were processed

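Polyadenylated RNA of 16 mIMCD3 libraries (4 groups of 4) was made into directional libraries and sequenced as read pairs. The authors aligned reads to GRCm38 (STAR 2.6.0c) and quantified genes with Salmon (0.14.10 in the submitters' processing notes). They deposited estimated counts per gene, not normalized, and TPM values. No reads were processed again.

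Groups came from the labels. Positions, lengths and overlaps came from GENCODE M21, which held all 54393 gene identifiers, and promoters from RefSeq. The deposited estimated counts were rounded, 13234 genes that reached 1 CPM in 4 or more libraries were retained, and a robust quasi-likelihood model with 4 group means was fitted (edgeR 4.0.16, TMM, R 4.3.3). Contrasts of treatment or time used glmTreat at 1.2-fold, and the difference between DOX effects used glmQLFTest, all two-sided, with Benjamini-Hochberg adjustment over all tested genes. SE was approximated from the F statistic, and intervals are 1.96 SE on either side. CPM are TMM-scaled. TPM served for levels and, as log2(TPM + 1), for limma 3.58.1. Calculations were tested on simulated counts. The alternatives are given in the closing section.

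The 10 genes and the pathway and marker lists were chosen with earlier results of these data known. Named were the 10 genes, 12 pathway genes fixed by name, up to 4 called genes of each list with the largest change at either time, and the 3 genes most like the one of the 10 that changed most at 6 days. *Gm16754*, *Gm17494*, *Gm6061* and *Ikbkg* were named for exon overlap. *Nnt*, listed under 2 identifiers, was not used.

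Same-numbered libraries did not deviate together: deviations from group means correlated on average at -0.0955 between DOX and DMSO at 3 days and at -0.121 at 6 days, so the numbers were not treated as pairs.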

Additional observations from a re-analysis of the deposited data

Results flagged for a closer look

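Of 40 sets of 4 replicates (10 genes in 4 groups), 3 had 1 library standing apart by Dixon's criterion, which chance alone does in about 1 of 20 sets. Replicate 4 of the DMSO libraries of 3 days was the highest for *Keap1*, at 47.2 CPM beside 44.0 to 44.1 CPM in the other libraries of its group, and for *Gclc*, at 125 CPM beside 111 to 113 CPM. Replicate 1 of the DMSO libraries of 6 days was the lowest for *Gclm*, at 138 CPM beside 159 to 162 CPM. Without any one of the 16 libraries, 4 of the 10 genes were still called at 3 days and 4 at 6 days.

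The DOX effect differed between 6 and 3 days by -0.33 on the log2 scale for *Hmox1* and by 0.36 for *Gclc*, by edgeR's test of the difference (adjusted p = 0.0215 and 0.0193). For *Hmox1* the 4 DOX libraries were above the 4 DMSO libraries at 3 days in CPM, though not in TPM, and the treatments overlapped at 6 days. For *Gclc* all 4 DOX libraries were below the DMSO libraries at both times.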

How the results depend on the processing

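The 4 calls at 3 days (*Gclc*, *Gclm*, *Srxn1* and *Gsr*) held under RLE size factors, DESeq2 1.42.0, limma on log2(TPM + 1) and log2(TPM + 0.1), both filters, no robust estimation, the replicate block, fitting 8 libraries only, the length and GC offset (chosen after seeing the data) and without each library in turn (4 to 4), while 7 were called with no fold threshold. At 6 days the number was 4 under the same alternatives (4 to 4 without each library), 3 with no filter and 6 with no fold threshold (adding *Nfe2l2* and *Txnrd1*). The difference between times called 2 genes (*Gclc* and *Hmox1*, also with the replicate block, but *Gclc* and *Keap1* with no filter), 0 with limma on log2(TPM + 1) or log2(TPM + 0.1), 0 with a 1.2-fold threshold, 1 (*Gclc*) with the length and GC offset with or without the block, and 0 to 3 without single libraries: 0 without DMSO 3 days replicate 4, 1 without DOX 3 days replicate 2 (*Gclc* still called) and without DMSO 6 days replicate 2 or DOX 6 days replicate 4 (*Hmox1* still called), and 3, with *Keap1*, without replicate 1 of either treatment at 6 days. For 6 against 3 days, no fold threshold gave 1 call with DMSO (*Hmox1*) and 2 with DOX, the length and GC offset 1 with DOX (*Nqo1*), also with the block, and leaving out libraries 0 to 1 with DOX (*Gclc*, without DOX 3 days replicate 1). Without the threshold, 0.468% of all tested genes were called between the times with DMSO and 30.2% with DOX. The replicate block changed no other call of the 10 genes (4 and 4 called, 0 between times), and 0 libraries were most like their own number in any contrast.

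Directions turned for the following values, none of them called. At 3 days *Cat* became 0.0036 with RLE and 0.0046 with DESeq2, *Mafg* -0.12 and -0.12, *Txn1* -0.16 and -0.16 and *Akr1c12* -0.13 and -0.17 on the 2 TPM scales, and with the offset *Txn1* -0.11 and *Akr1c12* -0.13, with or without the block. At 6 days *Keap1* became -0.078 and -0.081, *Gpx4* -0.029 and -0.029 and *Cat* -0.0049 and -0.0052 on the TPM scales, and *Hmox1* 9.4e-05 with the offset and 0.00021 with the block added. For the difference between times *Nfe2l2* became 0.037 and 0.038 and *Gsr* 0.134 and 0.135 on the TPM scales, and *Gsr* 0.027 with no filter and 0.050 with the offset. Without single libraries, 3-day values ran from -0.033 to 0.020 for *Cat*, -0.095 to 0.057 for *Fth1*, -0.043 to 0.109 for *Akr1c12*, -0.020 to 0.121 for *Txn1*, -0.137 to 0.00017 for *Prdx1* and -0.044 to 1.29 for *Ugt1a6a*, 6-day values from -0.034 to 0.085 for *Gpx4* and -0.023 to 0.050 for *Sod2*, and the *Gsr* difference from -0.044 to 0.017. The causes were not tested.

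Over all genes, calls numbered 1658 at 3 days (1019 with DESeq2, 626 and 746 on the TPM scales, 5982 without threshold), 2856 at 6 days (1232 and 1389, 6702) and 2252 for the difference between times (579 and 566, 183 with the threshold, 3787 without DOX 3 days replicate 1, 1369, 1480 and 1467 without DMSO 3 days replicate 4, DOX 3 days replicate 2 and DMSO 6 days replicate 2). For DOX at 6 against 3 days they numbered 522 (243 with DESeq2, 68 and 81 on the TPM scales, 4000 without threshold, 909 without DOX 3 days replicate 1, and 325 to 342 without DOX 3 days replicates 2, 3 or 4 or DOX 6 days replicates 2 or 3). With DMSO they numbered 0 (62 without threshold, 6 with no filter). *Nqo1* had the fewest counts of the 10, at 16 to 63.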
